A study of Mus musculus with 4 samples.

Results

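The guanylate-binding protein (GBP) genes were followed in sequenced RNA of 4 mouse tumours, whose tissue of origin the labels do not give. The genes were chosen by name: Gbp2, Gbp3, Gbp4, Gbp5, Gbp6, Gbp7, Gbp8 and Gbp9, which are 8 of the 51826 gene rows of the deposited table, and each symbol matched 1 row. The 2 HET libraries came from C3-T+ tumours of genotype Elf5+/-, and the 2 WT libraries from C3-T+ tumours of genotype Elf5+/+. All tumours were thus C3-T+, a name that the labels do not spell out, and the labels give no age, sex or strain. HET 1 and HET 2 have the same number, 3211, in their titles (T1 and T2), whereas WT 1 has 3210 and WT 2 has 4972, so the HET libraries may be tumours of a single animal, which the labels do not settle. The p-values therefore describe the spread among the 4 samples only, and that spread may be partly technical. If the HET tumours are of a single animal, their spread leaves out differences between HET animals. Genotype could then not be told apart from that animal. The tumours were digested with enzymes, and cells were sorted with antibodies to CD45 (leukocytes), CD31 (endothelium) and TER119 (erythroid cells) to enrich tumour cells before RNA was extracted.

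GBPs are large GTPases of the dynamin superfamily whose transcription is switched on by interferons, most strongly by interferon gamma. In infected cells they assemble on the membranes of vacuoles and bacteria, where they help to break the vacuole open and to expose bacterial lipopolysaccharide to caspase-11, and they are widely used as a readout of interferon gamma acting on a cell. They are not restricted to immune cells, since epithelial cells, endothelium, fibroblasts and leukocytes all induce them. In the mouse they lie in a pair of gene clusters, which in the GENCODE annotation (GRCm38) span chr3:142493978-142638008 and chr5:105014150-105346472. Gbp2, Gbp3, Gbp5 and Gbp7 lie on the plus strand of chromosome 3, and Gbp4, Gbp6, Gbp8 and Gbp9 on the minus strand of chromosome 5. Gbp2b on chromosome 3 and Gbp10 and Gbp11 on chromosome 5 are the other GBP genes followed here.

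RefSeq promoter sequences (GRCm38.p6) were found for 4 of the 8 members, all of them on chromosome 3. They were searched on both strands for GAAA, any 2 bases and GAAA again, the core of the interferon-stimulated response element (ISRE) that IRF factors bind, and for TTCNNNGAA, the gamma-activated sequence (GAS), another element of interferon-induced promoters. The 250 bases before the RefSeq start of each gene are shown 5′ to 3′, with every match in capitals, because all 4 hold an ISRE match.
Gbp2 promoter, chr3:142620413-142620662, plus strand: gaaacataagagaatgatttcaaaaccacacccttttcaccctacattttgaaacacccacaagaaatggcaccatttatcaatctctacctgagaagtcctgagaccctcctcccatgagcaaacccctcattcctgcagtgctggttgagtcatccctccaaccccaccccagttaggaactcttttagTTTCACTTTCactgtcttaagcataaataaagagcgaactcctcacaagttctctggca
Gbp3 promoter, chr3:142559794-142560043, plus strand: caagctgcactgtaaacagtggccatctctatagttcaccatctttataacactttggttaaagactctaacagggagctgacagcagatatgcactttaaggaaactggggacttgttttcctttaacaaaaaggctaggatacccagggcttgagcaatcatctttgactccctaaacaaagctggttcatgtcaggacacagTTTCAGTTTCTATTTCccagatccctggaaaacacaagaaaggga
Gbp5 promoter, chr3:142496684-142496933, plus strand: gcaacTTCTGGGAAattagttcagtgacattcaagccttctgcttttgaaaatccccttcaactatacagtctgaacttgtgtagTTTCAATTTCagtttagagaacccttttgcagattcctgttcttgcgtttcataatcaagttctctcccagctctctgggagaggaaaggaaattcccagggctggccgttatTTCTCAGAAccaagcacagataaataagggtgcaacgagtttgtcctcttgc
Gbp7 promoter, chr3:142530086-142530335, plus strand: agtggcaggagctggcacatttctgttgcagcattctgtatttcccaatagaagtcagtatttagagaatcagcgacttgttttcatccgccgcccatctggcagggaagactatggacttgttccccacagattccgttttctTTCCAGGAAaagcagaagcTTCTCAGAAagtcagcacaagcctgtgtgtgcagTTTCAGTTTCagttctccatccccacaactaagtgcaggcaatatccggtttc

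The ISRE matches lie close to the start in Gbp2 (bases 59 to 50 before it), Gbp7 (53 to 44) and Gbp3, which has a pair of overlapping matches (45 to 36 and 39 to 30). In Gbp5 the match lies farther away, at bases 165 to 156. All of these ISRE matches lie on the minus strand, so that the plus strand printed here reads TTTC, 2 bases and TTTC. Gbp5 and Gbp7 also hold GAS matches, at bases 245 to 237 and 52 to 44 before the start of Gbp5 and at bases 106 to 98 and 87 to 79 before that of Gbp7, whereas none was found in the windows of Gbp2 and Gbp3. Over all 32851 RefSeq promoter windows of 300 bases, 3.44% held the ISRE core and 8.30% the GAS motif. A second RefSeq start of Gbp3, whose window begins at chromosome 3 position 142560106, held no match to either motif. GENCODE places the start of Gbp2 61 bases and that of Gbp5 2956 bases earlier than RefSeq, so the ISRE match of Gbp2 and the whole window of Gbp5, with its ISRE match and both GAS matches, lie inside those gene models. The matches are descriptions of letters in these windows and do not show that a factor was bound.

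**Figure D1:**
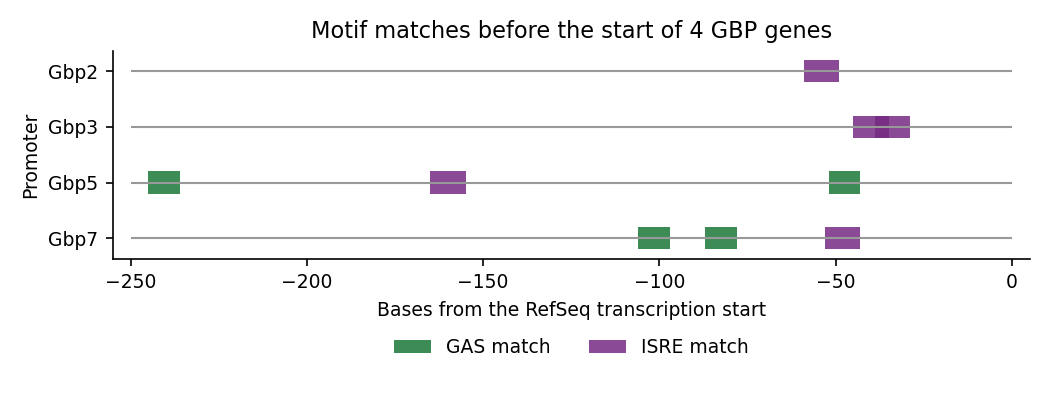
Position of ISRE and GAS matches (coloured boxes) in the 250 bases before the RefSeq start of Gbp2, Gbp3, Gbp5 and Gbp7; the x axis gives bases from the start, which is at 0. Each of the 4 promoters holds at least 1 ISRE match, and Gbp5 and Gbp7 hold GAS matches as well.

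Libraries held between 12695132 and 15307939 counts. Elf5, the targeted gene, stood at 5.39 and 10.6 CPM (counts relative to library sizes that were adjusted by edgeR's TMM factors) in HET 1 and HET 2, against 35.6 CPM in WT 1 and 4.70 in the library labelled WT 2. Elf5 RNA in that library thus lay below both HET libraries, and every direction given here for HET over WT rests on its label. The same library stood apart in its makeup: 44.5% of genes had no count there, against 29.9% to 31.3% in the other libraries. Summed macrophage and monocyte markers (12 genes) were at 1008 and 663 CPM in HET, 940 CPM in WT 1 and 96.3 CPM in the library labelled WT 2. Summed endothelial markers (9 genes) were at 309 and 533 CPM in HET, 366 CPM in WT 1 and 71.6 CPM in the library labelled WT 2. Summed fibroblast markers (10 genes) were at 3976 and 4954 CPM in HET, 6585 CPM in WT 1 and 21888 CPM in the library labelled WT 2. Epithelial markers were abundant everywhere, at 2706 and 2531 CPM in HET and 3920 and 3520 CPM in WT. In bulk RNA, fewer cells of a type and less RNA per cell cannot be told apart.

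All 8 GBP genes had a higher estimate in HET than in WT, but none passed the test that compares the genotypes. In edgeR's quasi-likelihood fit over 21607 genes, 0 genes passed a Benjamini-Hochberg adjusted p under 0.05 (0% called), and 0 of the 8 members did. All 8 members passed the filter on low counts and were tested. Their log2 fold changes lay between 0.14 and 1.46 with a median of 0.92, against a median of 0.04 over all genes tested, and 8 of 8 were above 0, against 52.7% of all genes. Gbp9 and Gbp6 had unadjusted p-values under 0.05 in edgeR, which makes 2 of 8 members, against 1.95% of all genes in the higher and 1.83% in the lower direction (817 genes in all). DESeq2 called 134 genes (0.62%) and limma-voom 0, and no member was among them. Leaving out the library labelled WT 2 gave 9 genes (0.0417%) in edgeR, again with no member. In 6 of the 8 members both HET libraries lay above both WT libraries, against 19.6% of all genes. The library labelled WT 2 was the lowest of the 4 for all 8 members, and HET 1 was the highest for 7. Libraries of 1 genotype differed as well: the sum over the 8 members was 358 CPM in HET 1 and 247 in HET 2, against 239 CPM in WT 1 and 152 in the library labelled WT 2. HET 2 and WT 1 were thus close to each other in the sum, and the members differed in how far the genotypes stood apart.

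**Figure D2:**
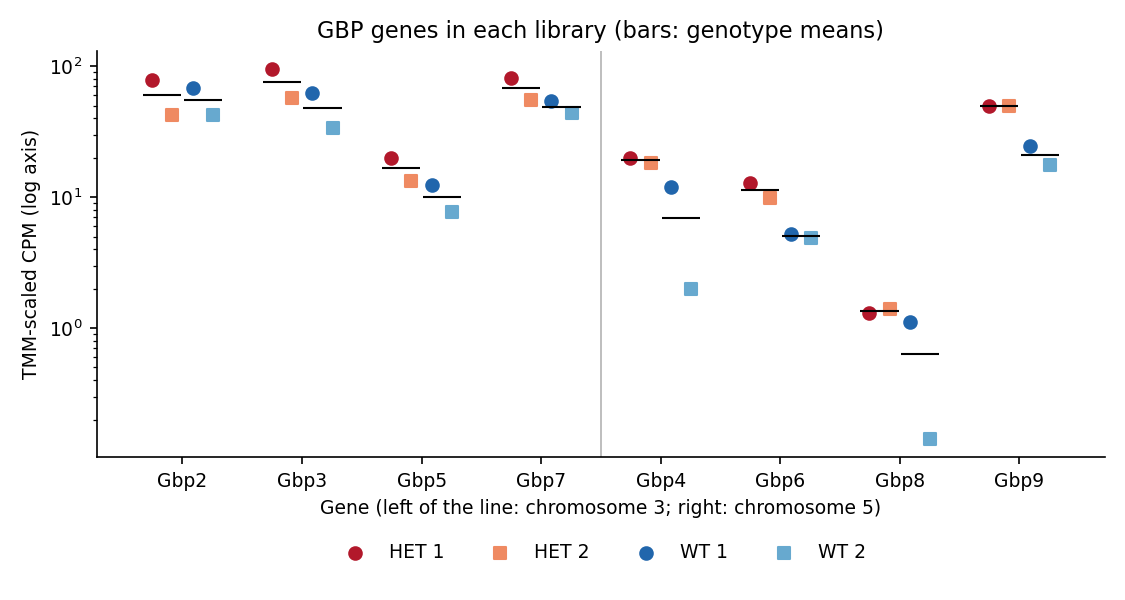
TMM-scaled CPM (log axis) of the 8 GBP genes in each library, HET left of WT, with a bar at each genotype mean; chromosome 3 genes stand left of the vertical line and chromosome 5 genes right of it. Gbp9 and Gbp6 separate the genotypes, Gbp2 and Gbp3 overlap, and Gbp4 and Gbp8 have a single low library, the one labelled WT 2.

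Gbp9, on chromosome 5 (105077630 to 105139539, minus strand), gave the clearest separation. It stood at 49.9 and 49.6 CPM in HET 1 and HET 2, against 24.5 CPM in WT 1 and 17.7 CPM in the library labelled WT 2 (669 to 768 counts in HET, 248 to 308 in WT). Both HET libraries were alike and at least 2.03 times the higher WT library. The log2 fold change was 1.24 ± 0.31 (SE, n = 2 libraries per genotype), with an edgeR unadjusted p of 0.00741 and an adjusted p of 0.986. The estimate held when single libraries were left out, between 1.02 and 1.49.

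Gbp6 (105270702 to 105293698), which takes part in defence against intracellular bacteria in mouse macrophages, was also alike within each genotype. It stood at 12.9 and 9.80 CPM in HET, against 5.25 and 4.91 CPM in WT, and the genotypes did not overlap. Its log2 fold change was 1.16 ± 0.44 (SE), at an edgeR unadjusted p of 0.0379 and an adjusted p of 0.986. Its counts are uncertain, because Gbp10 shares much of its sequence: 80.8% of the 31-base words in Gbp10 transcripts also occur in Gbp6 transcripts, and 51.4% of those in Gbp6 occur in Gbp10. With the counts of both genes added together, the pair stood at 21.9 and 15.5 CPM in HET, against 11.5 and 8.69 CPM in WT, and the log2 fold change of the summed row was 0.89 ± 0.40 (SE; edgeR unadjusted p = 0.0683).

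Gbp4 (105115767 to 105139586), which in the mouse restrains the antiviral factor IRF7, had the largest fold change of the members and the least even WT group. It stood at 20.1 and 18.2 CPM in HET, against 11.9 CPM in WT 1 and 1.99 CPM in the library labelled WT 2. The genotypes did not overlap, yet the WT libraries lay farther from each other than WT 1 lay from HET. The log2 fold change of 1.46 ± 0.79 (SE; edgeR adjusted p = 0.986) became 0.68 without the library labelled WT 2. Without WT 1 it became 3.26, with an edgeR adjusted p of 0.0221, and 493 genes (2.28%) passed in the higher direction in that fit.

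Gbp8 (105014150 to 105139540) was barely expressed. It had 20 and 19 counts in HET, against 14 counts in WT 1 and 2 counts in the library labelled WT 2. Its log2 fold change of 1.11 ± 1.11 (SE; edgeR adjusted p = 0.986) rests on that library and became 0.28 without it. The gene models of Gbp4, Gbp8 and Gbp9 overlap on the same strand, and 13.5%, 31.1% and 18.3% of their 31-base words occur in other GBP genes, so the division of reads among them is uncertain. Added together they stood at 71.2 and 69.2 CPM in HET, against 37.5 CPM in WT 1 and 19.8 CPM in the library labelled WT 2, so the sum over these overlapping genes kept HET above WT.

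The chromosome 3 members are less tangled, since between 0.195% and 5.64% of their words occur in other GBP genes. Gbp5 (142493978 to 142522344), which promotes NLRP3 inflammasome assembly in mouse macrophages, stood at 20.0 and 13.2 CPM in HET, against 12.3 and 7.76 CPM in WT. HET lay above WT, but HET 2 exceeded WT 1 by less than the libraries of either genotype differed, and the log2 fold change was 0.73 ± 0.45 (SE; edgeR unadjusted p = 0.154, adjusted p = 0.986). With single libraries left out, the estimate for Gbp5 was 0.36 without HET 1, 0.43 without the library labelled WT 2 and 1.10 without WT 1. Gbp7 (142530342 to 142550149), which in mouse macrophages supports assembly of the phagocyte oxidase on vacuoles, stood at 81.1 and 55.4 CPM in HET, against 53.9 and 44.0 CPM in WT. HET 2 and WT 1 were again nearly level. The log2 fold change of Gbp7 was 0.48 ± 0.32 (SE; edgeR adjusted p = 0.986), and it lay between 0.13 (without HET 1) and 0.67 (without HET 2) with single libraries left out.

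Gbp3 and Gbp2 overlapped between genotypes. Gbp3 (142560026 to 142573209) stood at 94.8 and 57.0 CPM in HET, against 62.2 and 33.5 CPM in WT, so that HET 2 lay below WT 1. Its log2 fold change was 0.67 ± 0.43 (SE; edgeR adjusted p = 0.986) and became 0.22 without HET 1, 0.29 without the library labelled WT 2 and 1.18 without WT 1. With CPM scaled by total counts alone, Gbp3 would count as separated, at 60.5 CPM in HET 2 and 59.5 CPM in WT 1. Gbp2 (142620602 to 142638008), a lipid-anchored GBP that coats the vacuole of Toxoplasma in mouse cells, stood at 78.2 and 42.7 CPM in HET, against 67.6 and 42.2 CPM in WT. Its libraries interleaved: HET 1 and WT 1 were high, HET 2 and the library labelled WT 2 were low and nearly equal. The log2 fold change of Gbp2 was 0.14 ± 0.41 (SE; edgeR adjusted p = 0.991), and it turned to -0.40 without HET 1 and to -0.16 without the library labelled WT 2.

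**Figure D3:**
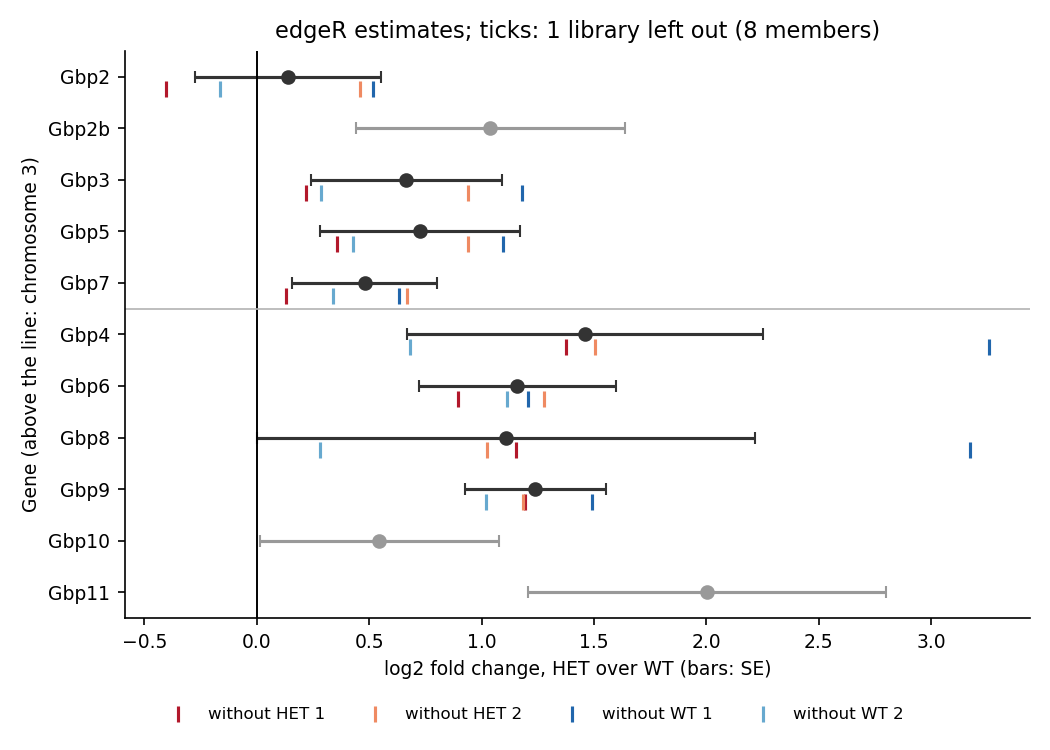
Log2 fold change of HET over WT from edgeR with its SE for the 8 members (black) and the 3 other GBP genes (grey); coloured ticks give the estimate of each member with 1 library left out. Gbp9 and Gbp6 stay between 0.89 and 1.49 with any 1 library left out, Gbp2 crosses 0, and Gbp4 and Gbp8 spread widest, between 0.68 and 3.26 and between 0.28 and 3.17.

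The chromosome 5 members thus had larger fold changes (1.11 to 1.46) than the chromosome 3 members (0.14 to 0.73), a division seen after the values were known. It was not tested, and among the other GBP genes Gbp2b and Gbp10 do not follow it. Gbp2b on chromosome 3 stood at 3.70 and 3.49 CPM in HET, against 2.07 and 1.42 CPM in WT (log2 fold change 1.04 ± 0.60, SE). Gbp10 on chromosome 5 overlapped between genotypes, at 8.96 and 5.71 CPM in HET and 6.28 and 3.77 CPM in WT (log2 fold change 0.55 ± 0.53, SE). Gbp11, annotated as a polymorphic pseudogene on chromosome 5, had 41 and 22 counts in HET, against 8 and 6 counts in WT. Its log2 fold change was 2.00 ± 0.80 (SE; edgeR unadjusted p = 0.0452, adjusted p = 0.986). Its WT counts were too few for the low-count filter, so Gbp11 was tested only because of its HET libraries, and its values are given as a description.

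Ratios of counts within a library do not depend on how libraries are scaled. Summed counts of the chromosome 5 members were 0.307 and 0.470 times those of the chromosome 3 members in HET 1 and HET 2, against 0.218 in WT 1 and 0.194 in the library labelled WT 2. Gbp9 had 0.637 and 1.16 counts for each count of Gbp2 in HET, against 0.362 and 0.418 in WT. Gbp9 had 0.615 and 0.897 counts for each count of Gbp7 in HET, against 0.455 and 0.401 in WT. Gbp6 had 0.165 and 0.230 counts for each count of Gbp2 in HET, against 0.0776 and 0.116 in WT. In each of these ratios both HET libraries lay above both WT libraries, and HET 2 was the highest although its summed GBP level was below that of HET 1. Within chromosome 3, Gbp3 had 1.21 and 1.34 counts for each count of Gbp2 in HET, against 0.920 and 0.793 in WT, so this ratio separated the genotypes as well. Within chromosome 5, Gbp4 had 0.402 and 0.366 counts for each count of Gbp9 in HET, against 0.487 in WT 1 and 0.113 in the library labelled WT 2, and the genotypes overlapped with WT 1 the highest. The ratios were chosen after the values were seen, and an exact permutation test of 2 libraries against 2 cannot give a two-sided p below 0.33, so they are given as values.

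**Figure D4:**
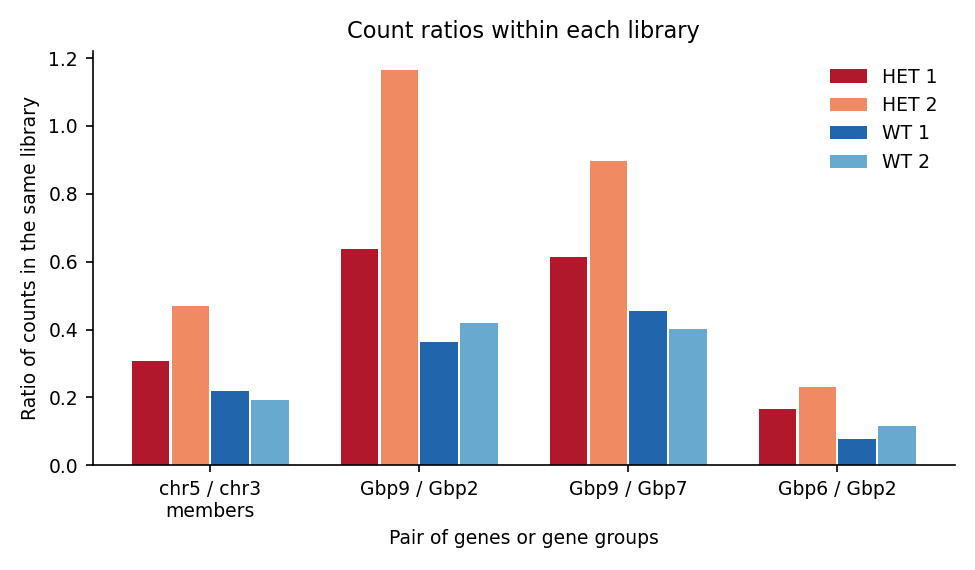
Ratio of estimated counts within each library for the chromosome 5 members over the chromosome 3 members, Gbp9 over Gbp2, Gbp9 over Gbp7 and Gbp6 over Gbp2; HET bars stand left of WT bars. HET 2 is the highest and HET 1 the next in every group of bars, with 0.470 and 0.307 for the summed clusters against 0.218 and 0.194 in WT.

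Levels of different genes were compared per kilobase of annotated exon. Gbp2 and Gbp3 were the most abundant, at 24.0 ± 9.99 and 23.2 ± 8.18 CPM per kilobase in HET and 21.8 ± 7.13 and 14.7 ± 6.22 CPM per kilobase in WT (mean ± SD, n = 2). Their HET means lay well within their spread, Gbp2 was the higher of them in 3 of 4 libraries, and with the longest transcript as the length Gbp3 came first in HET, at 28.3 CPM per kilobase. Gbp7 was the third in every library, at 12.2 ± 3.24 CPM per kilobase in HET and 8.72 ± 1.24 in WT. Gbp9 was the fourth in every library, at 9.62 ± 0.0285 CPM per kilobase in HET and 4.08 ± 0.935 in WT. Together these 4 genes made up 89.3% to 91.1% of the length-scaled GBP level in HET and 92.8% to 94.3% in WT. Gbp2 alone made up 33.6% and 28.1% of it in HET, against 41.4% and 41.3% in WT, and Gbp9 10.4% and 15.9% in HET, against 7.30% and 8.41% in WT. Gbp4, Gbp5 and Gbp6 followed, at means of 1.91 to 2.55 CPM per kilobase in HET and 0.854 to 1.51 in WT, and Gbp4 and Gbp5 were within their spread of each other in both genotypes. Gbp8 was the least abundant in every library, at 0.393 CPM per kilobase in HET and 0.182 in WT.

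The genes that flank the clusters were read from the same fit. Of the 5 nearest named protein-coding genes on each side, 8 of 10 around the chromosome 3 cluster and 9 of 10 around the chromosome 5 cluster were tested, and 0 passed in edgeR. Above 0 were 1 of 8 on chromosome 3 (median log2 fold change -0.32) and 3 of 9 on chromosome 5 (median -0.10). Pdlim5, an actin-associated scaffold gene 98.3 kb before the chromosome 3 cluster, stood at 103 and 67.5 CPM in HET, against 157 and 149 CPM in WT (log2 fold change -0.84 ± 0.33, SE). Hs2st1, a heparan sulphate sulphotransferase gene after the cluster, stood at 31.9 and 51.1 CPM in HET, against 77.9 and 61.8 CPM in WT. For each of these genes HET lay below WT with no overlap. Around the chromosome 5 cluster the smallest p belonged to Lrrc8b, a subunit of volume-regulated anion channels, at 29.3 and 23.0 CPM in HET, against 36.2 and 41.3 CPM in WT, and to Lrrc8d, another such subunit, at 65.9 and 74.1 CPM in HET, against 116.8 and 81.1 CPM in WT.

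The immunity-related GTPases, the smaller interferon-induced GTPases that act with GBPs on vacuoles, were read in the same way. All 12 had a log2 fold change above 0, with a median of 0.97, and in 10 of 12 both HET libraries lay above both WT libraries (19.6% of all genes did). In edgeR 0 passed, and 3 of 12 were higher at an unadjusted p under 0.05 (1.95% of all genes were). Summed, the 12 stood at 399 and 337 CPM in HET, against 246 CPM in WT 1 and 111 CPM in the library labelled WT 2. The WT libraries thus differed 2.22 times in this sum. The 3 genes named next are those of smallest p. Gm12250 (Irgb10) stood at 4.48 and 6.31 CPM in HET, against 1.67 and 1.28 CPM in WT. F830016B08Rik stood at 49.9 and 27.3 CPM in HET, against 18.1 and 11.1 CPM in WT, and Iigp1 at 31.9 and 35.5 CPM in HET, against 22.6 and 14.5 CPM in WT, with no overlap in any of the 3. Atlastins, the membrane-fusing GTPases that are relatives of GBPs, gave 0 of 3 above 0 and a median log2 fold change of -0.24. Atl2 stood at 52.1 and 46.7 CPM in HET, against 57.8 and 69.4 CPM in WT, with HET below WT and no overlap (log2 fold change -0.36 ± 0.28, SE). Atl3 stood at 98.6 and 77.5 CPM in HET, against 101 and 94.4 CPM in WT, and Atl1 at 4.74 and 3.19 CPM in HET, against 4.53 and 4.84 CPM in WT, and both overlapped.

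Of 15 genes that carry, restrain or respond to the interferon signal, 14 were tested and 0 passed in edgeR. Of these 14, 9 were above 0, and the median log2 fold change was 0.23. Nlrc5, a transactivator of MHC class I genes that interferon gamma induces, had the smallest p, at 56.1 and 32.6 CPM in HET, against 21.7 and 21.2 CPM in WT, a log2 fold change of 1.05 ± 0.36 (SE, edgeR unadjusted p = 0.028, adjusted p = 0.986). Irf9, an IRF factor that reads ISRE sites, stood at 56.7 and 53.3 CPM in HET, against 39.7 and 39.7 CPM in WT. Socs3, a feedback inhibitor of JAK signalling, stood at 191 and 198 CPM in HET, against 131 and 116 CPM in WT. Ifng itself was near the limit of detection, with 11 and 4 counts in HET, against 9 counts in WT 1 and 0 counts in the library labelled WT 2, where a count of 0 allows up to 3 counts (0.196 CPM of total counts). At this depth no difference in Ifng was detectable.

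Among 10 inflammasome genes that work with GBPs, 9 were above 0 (52.7% of all genes were) and 0 passed in edgeR. Their median log2 fold change was 0.67. In 3 of 10 both HET libraries lay above both WT libraries (19.6% of all genes did), 1 lay below and 6 overlapped. Summed, the 10 stood at 232 and 210 CPM in HET, against 216 CPM in WT 1 and 117 CPM in the library labelled WT 2. The genes named next are the 3 that lay above. Casp4, which encodes caspase-11, stood at 17.5 and 20.7 CPM in HET, against 11.2 and 8.48 CPM in WT (log2 fold change 0.95 ± 0.38, SE, edgeR unadjusted p = 0.0455, adjusted p = 0.986). Gsdmd, whose product forms pores once caspase-11 has cut it, stood at 12.3 and 9.50 CPM in HET, against 8.27 and 6.48 CPM in WT, and Il18, a cytokine gene of this pathway, stood at 2.08 and 1.26 CPM in HET, against 0.795 and 0.712 CPM in WT. Of 12 autophagy genes that help to load GBPs onto vacuoles, 3 were above 0, with a median log2 fold change of -0.15, and 0 passed. Their members of smallest p were Atg3, the LC3-conjugating enzyme gene (log2 fold change -0.68), and the ATG8-family genes Gabarapl1 (-0.61) and Map1lc3a (-0.42), each of which overlapped between genotypes.

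Markers of other cell types were read beside the GBP genes. Pan-leukocyte markers were at 477 and 349 CPM in HET, against 365 CPM in WT 1 and 139 CPM in the library labelled WT 2, with 5 of 10 higher in both HET libraries (19.6% of all genes tested were). T and NK cell markers were at 58.7 and 71.0 CPM in HET, against 28.1 CPM in WT 1 and 11.4 CPM in the library labelled WT 2, with 9 of 12 tested higher in both HET libraries and a median log2 fold change of 1.79. Macrophage and monocyte markers had 1 of 12 higher in both HET libraries, and endothelial markers 6 of 9, beside the same 19.6%. Fibroblast markers went the other way, with 7 of 10 lower in both HET libraries (15.9% of all genes were) and a median log2 fold change of -0.98. Epithelial markers had 2 of 11 lower and 1 of 11 higher in both HET libraries. The same 19.6% of all genes applies to the counts of higher markers that follow. It is a loose yardstick for markers of few counts, because the low-count filter may pass them on their HET libraries. Among B and plasma cell markers, WT counts were 15 and 4 for Ms4a1, 22 and 9 for Jchain and 66 and 0 for Ighm. They were 19 and 3 for the erythroid marker Hba-a1 and 12 and 3 for the T cell marker Cd3g. The filter may thus have raised the shares of tested markers that were higher in HET on these lists. B and plasma cell markers were at 16.2 and 51.7 CPM in HET, against 9.31 CPM in WT 1 and 1.28 CPM in the library labelled WT 2, with 3 of 3 tested (of 7) higher in both HET libraries. Neutrophil markers were at 24.5 and 30.4 CPM in HET, against 29.5 CPM in WT 1 and 5.34 CPM in the library labelled WT 2, with 1 of 4 tested (of 6) higher in both HET libraries. Erythroid markers were at 5.52 and 15.7 CPM in HET, against 5.33 CPM in WT 1 and 1.64 CPM in the library labelled WT 2, with 2 of 3 tested (of 6) higher in both HET libraries. At 0 counts were 1 T and NK cell marker in HET 2, and 3 such markers and 1 endothelial marker (Cldn5) in the library labelled WT 2. Of the B and plasma cell markers 1 was at 0 in HET 1, 1 in WT 1 and 3 in the library labelled WT 2. All 10 pan-leukocyte and 12 macrophage markers had counts in every library, but some were near 0 in the library labelled WT 2. Cd52 and Adgre1 had 1 count each and Laptm5 had 3 counts there, against 191, 326 and 686 counts in WT 1. Cytip went the other way, at 1688 counts there and 235 counts in WT 1. Between the WT libraries the GBP sum was 1.57 times as high in WT 1 as in the library labelled WT 2. The sums were 2.63 times as high for pan-leukocyte, 9.77 for macrophage and monocyte, 2.46 for T and NK cell and 7.26 for B and plasma cell markers. They were 5.52 times as high for neutrophil, 3.25 for erythroid, 5.12 for endothelial, 1.11 for epithelial and 0.301 for fibroblast markers. Gbp4 was 5.98 times as high in WT 1 as in that library, Gbp9 1.39 times and Gbp6 1.07 times. The part of these cells in the GBP differences was not tested.

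**Figure D5:**
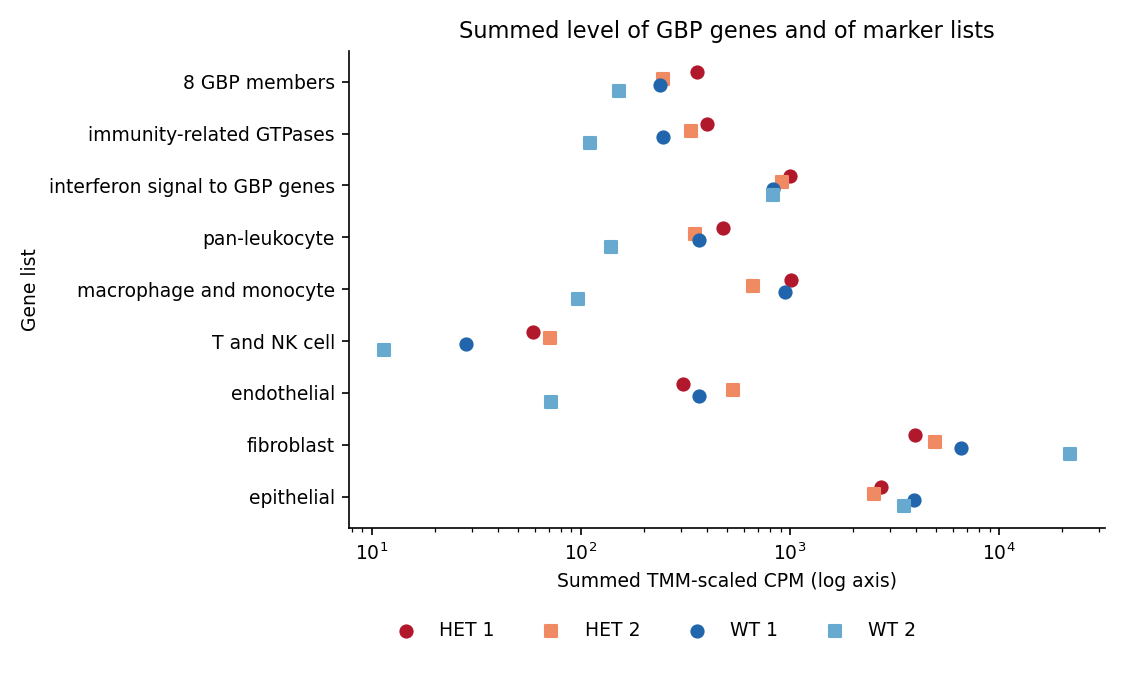
Summed TMM-scaled CPM (log axis) of the 8 GBP members, of the immunity-related GTPase and interferon signal lists, and of marker lists of other cell types, by library. GBP members span 152 to 358 CPM, while macrophage and monocyte markers span 96.3 to 1008 CPM and are lowest in the library labelled WT 2.

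Rgs9bp, Zfp979, Dynlt1c and Slc23a4 were among the 5 genes whose pattern over the 4 libraries was most like the mean of the 8 members. Likeness was the Euclidean distance between profiles of log2 CPM, each centred on its own mean over 4 libraries, among 12853 named protein-coding genes outside the family. The distances of the 4 genes named were between 0.0626 and 0.0885, and they were picked as among the smallest of the 12853. The members themselves lay at 0.342 (Gbp5) to 1.47 (Gbp4) from their own mean. Members were not picked by distance, so their larger distances cannot be set against those of the picked genes. The mean member profile was 0.67 and 0.28 in HET 1 and HET 2, against 0.01 in WT 1 and -0.96 in the library labelled WT 2. Zfp979, for example, stood at 9.15 and 7.05 CPM in HET, against 5.73 and 2.71 CPM in WT.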

How the data were processed

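RNA of 4 libraries was examined, and groups were taken from the genotype label. Per the submitters' processing notes, the authors used Salmon on GRCm38.p5. Values are the authors' estimated counts, deposited as whole numbers, and every row names a gene. The sources used here do not state the annotation, the Salmon version or whether counting used strand, so near-identical and overlapping genes are uncertain. Of 51826 identifiers, 51633 matched GENCODE M21.

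Genotypes were compared with edgeR 4.0.16 under R 4.3.3 using filterByExpr, TMM, quasi-likelihood F test, genotype as the only term, Benjamini-Hochberg adjustment over 21607 genes. Replicates varied by a coefficient of 0.46 (common, biological), on 2 residual degrees of freedom. The code was tested on simulated data with a smaller spread. The filter keeps a gene with enough counts in 2 libraries, so a gene of few counts may be tested through 1 genotype alone. Floors of 3 counts cover counting error only. Lists are described by counts and medians, without set tests. Members and lists were chosen with earlier results of these data known. Named genes were all GBP genes, the 3 members of smallest p of each pathway list (mean log2 CPM of at least 0), the 2 neighbours of smallest p around each cluster and the 5 nearest profiles, of which 1 is not reported here. Alternatives were other scalings, filters, DESeq2 1.42.0, limma-voom (limma 3.58.1), robust edgeR, each library left out, and near-identical GBP genes summed.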

Additional observations from a re-analysis of the deposited data

How the results depend on the processing

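Of 104 refits of the 8 members (13 alternatives each), 101 kept the direction and the side of the threshold. Gbp2 reversed without HET 1 and without the library labelled WT 2, its range over libraries left out being -0.40 to 0.52, and Gbp4 passed in edgeR without WT 1. Over scalings, filters and tools the lowest adjusted p of a member was 0.273. The count of genes passing was 324 with no filter beyond 1 count and 134 in DESeq2, and 0 to 657 with single libraries left out (657 without WT 1, 9 without the library labelled WT 2). The count of pathway list members passing was 0 in every fit of all 4 libraries. Members passed only without WT 1, a fit that compares HET with the library labelled WT 2 alone. That library had the lowest summed pan-leukocyte markers, and whether this bears on those members was not tested. Log2 fold changes of Il1b, Nlrp3, Aim2, Irf8, Tgtp1 and 9930111J21Rik1 lay between 3.06 and 5.60 in the fit without WT 1. A genotype left with 1 library was given the spread of the remaining pair. Upper-quartile scaling put the median of all genes at 0.12 (log2), against 0.04 with TMM. With the longest transcript as the length, levels per kilobase in HET became 9.86 for Gbp9, 4.21 for Gbp4, 4.42 for Gbp5 and 2.68 for Gbp6. With all 4 libraries, 6 members had both HET libraries above both WT libraries, or 7 with CPM of total counts. With 1 library left out, 6 to 8 members had all remaining HET libraries above all remaining WT libraries. The value of 8 came without HET 2 and without WT 1. Fewer libraries are easier to separate for any gene, and the share of all genes was not computed for these settings. Summing GBP genes that share 50% or more of their 31-base words was chosen after seeing the data, in place of a planned rule on protein identity that was not run. No paired analysis was possible because both WT titles end in T1 and do not number the WT tumours as the HET ones are. Depth limits Gbp8, Gbp11 and Ifng.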
